A study of Homo sapiens with 54 samples.

Results

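The 10 genes described here form the G1 part of the cell cycle engine: the D cyclins CCND1 and CCND3 with their kinases CDK4 and CDK6, the E cyclins CCNE1 and CCNE2 with their kinase CDK2, the CIP/KIP inhibitors CDKN1A (p21) and CDKN1B (p27), and the retinoblastoma gene RB1. They were chosen by gene symbol, and are 10 of the 27978 genes of the count table. RNA was sequenced from MDA-MB-231, an established human breast cancer cell line that lacks the oestrogen and progesterone receptors, after treatment with Compound Kushen Injection (CKI), a plant extract mixture used beside chemotherapy in China, or with mixtures rebuilt from fractions of it. The study asked which compounds of CKI are needed for its effects, by removing single compounds or sets of them. There were 54 libraries in 18 groups of 3, in sets of 6 groups that each had their own untreated (UT) and CKI libraries.

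In batch 1, cells were collected at 24 h and at 48 h, and the groups were UT, CKI, N-OmtOspc (CKI without oxymatrine and oxysophocarpine), N-MacOmtOspc (CKI without macrozamin, oxymatrine and oxysophocarpine), OO (oxymatrine and oxysophocarpine alone) and MOO (macrozamin, oxymatrine and oxysophocarpine alone). In batch 2, cells were collected at 48 h, and the groups were UT, CKI, N-Mac (without macrozamin), N-Nme (without N-methylcytisine), N-Omt (without oxymatrine) and N-Tri (without trifolirhizin). CKI was given at 2 mg/ml and each mixture at the amount equivalent to it. The labels describe the controls only as untreated and name no vehicle, and all libraries came from 1 cell line. No group was whole CKI rebuilt from its fractions. In comparisons with CKI, the loss of a compound therefore cannot be told apart from fractionation and rebuilding. Single removals were made in batch 2 only and paired removals in batch 1 only, so a difference between a single and a paired removal cannot be told apart from a difference between batches. Nothing in the labels says that replicates were separate cultures, and p-values here measure the spread between these libraries, which may be technical.

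In early G1, growth signals raise the D cyclins, which activate CDK4 and CDK6 and begin the phosphorylation of the RB1 protein. E cyclins with CDK2 then complete it, which frees E2F factors to switch on the genes of DNA replication, the E cyclin genes among them. CDKN1A and CDKN1B bind cyclin-CDK complexes and hold cells in G1. RNA levels say nothing direct about the proteins, many of which are set by degradation and phosphorylation.

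Libraries held between 17673537 and 26138924 counts, and all 10 genes passed the filter on low counts in each of the 31 comparisons. Of 3 genes listed as present in the line, VIM lay between 490 and 1562 counts-per-million of the scaled library total (CPM). CD44 lay between 328 and 671 CPM, and EGFR between 66.7 and 479 CPM. Of 6 genes listed as low or absent in the line, the receptor genes ESR1 and PGR did not exceed 0.333 CPM and CDH1 7.20 CPM, while ERBB2 (31.6 to 113.6 CPM), GATA3 (5.22 to 45.4 CPM) and EPCAM (6.25 to 27.3 CPM) were present in all libraries. Of 5 fibroblast markers, DCN and PDGFRA stayed under 1 CPM, LUM and COL1A2 reached 6.75 and 44.7 CPM, and COL1A1 lay between 8.88 and 64.2 CPM. Of the markers of HEK-293-like cells, LIN28B, NEFL and NEFM were at or near 0 in all libraries. At 24 h, 3 libraries stood apart from the other two of their group, shifted along the difference between the untreated cells of the batches: CKI replicate 1 (slope 0.682), N-MacOmtOspc replicate 2 (slope 0.592) and OO replicate 2 (slope 0.591), against -0.407 to 0.098 in the other libraries of batch 1. CDK6 was higher by 0.59 to 0.85 on the log2 scale in these 3 libraries than in the rest of their groups. Where leaving 1 of them out gained or ended a call, the value without it is given with the gene. These 3 were picked by that slope, and some other 24 h libraries deviated by similar amounts. The median absolute log2 deviation from the rest of the group was 0.329 in OO replicate 1 and 0.304 in N-OmtOspc replicate 3. It was 0.347 in N-MacOmtOspc replicate 2, 0.285 in CKI replicate 1 and 0.263 in OO replicate 2.

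Scaled by the length of exons, CCND1 was the most abundant of the 10 genes in untreated cells at 24 h, with 176.5 CPM per kilobase. CDK4 (87.9 CPM per kilobase), CCND3 (75.05) and CDKN1A (63.8) followed, and CDK2 had 31.9. CCNE1 (9.01 CPM per kilobase), CCNE2 (6.85) and CDK6 (3.65) were the lowest. These lengths came from GENCODE and may differ from the annotation behind the counts, whose release is not given in the sources used here, and the order is across genes and carries no test.

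In each treatment, many genes of the whole table differed from UT, and the share of all tested genes called at an adjusted p under 0.05 is the background for the counts of members. At 24 h, 6 of the 10 genes were called after CKI (38.7% of all genes), 7 after N-OmtOspc (66.8%), 7 after N-MacOmtOspc (45.9%), 2 after OO (16.5%) and 5 after MOO (35.8%). At 48 h in batch 1, 10 were called after CKI (62.5%), 8 after N-OmtOspc (80.4%), 8 after N-MacOmtOspc (64.7%), 8 after OO (67.8%) and 8 after MOO (60.5%). At 48 h in batch 2, 8 were called after CKI (68.4%), 9 after N-Mac (72.6%), 8 after N-Nme (69.5%), 9 after N-Omt (79.6%) and 8 after N-Tri (74.3%). The count for OO at 24 h was 1 without any UT library or without OO replicate 3, and that for MOO at 24 h was 3 without UT replicate 3 and 1 (CDKN1A) with the 18 libraries of the set in 1 fit. With 10 genes these shares lie near the background, and what set the genes apart from each other was direction and size. The median log2 fold change of the 10 genes was below 0 in all 15 comparisons (-0.07 to -0.54), where that of all tested genes lay between -0.02 and 0.03. For 37.9% (OO at 24 h) to 81.3% (N-OmtOspc at 48 h) of all tested genes, the libraries of a treatment did not overlap those of UT. Within each set the comparisons share the same UT libraries, so they are not independent of each other. In bulk RNA, fewer cells of a kind and less RNA per cell cannot be told apart.

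**Figure D1:**
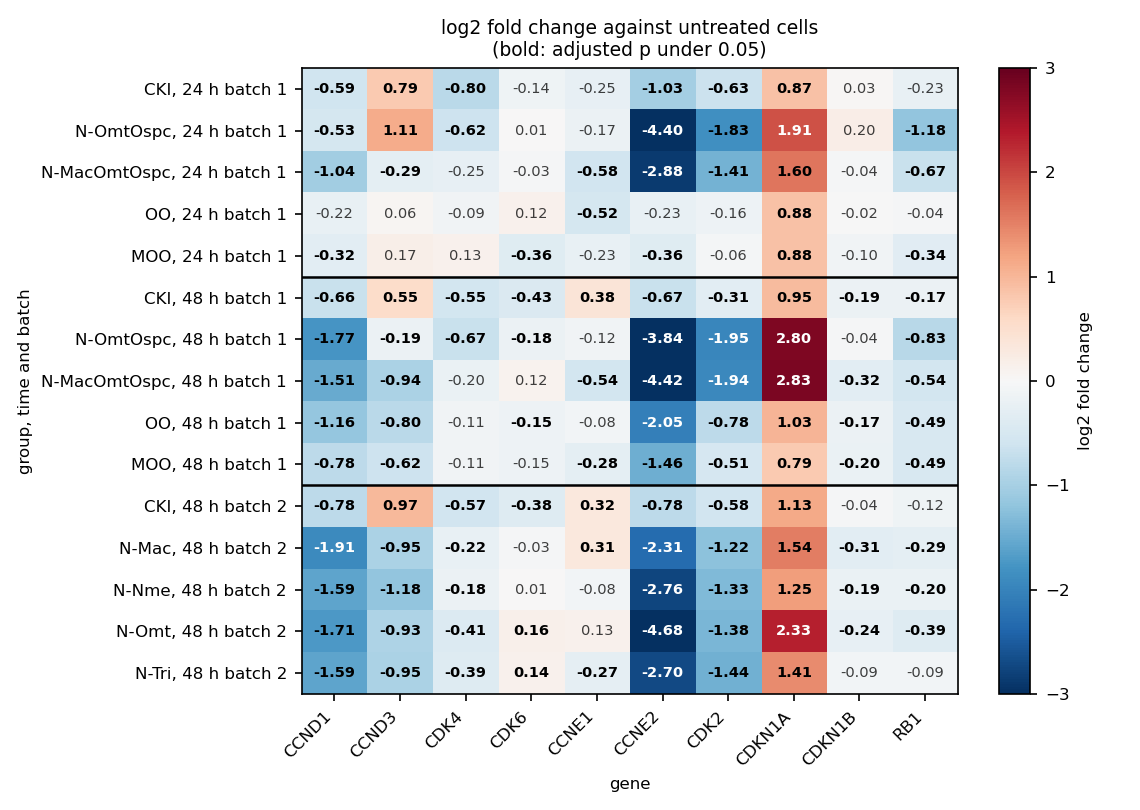
Log2 fold change of each of the 10 genes (columns) against untreated cells of the same time and batch in the 15 comparisons (rows), from edgeR. Colour runs from lower to higher and saturates at 3 in either direction, and bold numbers mark an adjusted p under 0.05. CDKN1A is higher in all 15 rows (0.79 to 2.83), CCNE2 and CDK2 are the genes with the deepest falls (to -4.68 and -1.95), and CCND3 is higher in 4 rows and lower in 9.

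CDKN1A, the inhibitor p21, was higher than in UT in all 15 comparisons, by 0.79 to 2.83 on the log2 scale, and no library of a treated group fell among the UT libraries of its set. It was also the only one of the 10 genes with more RNA after every treatment. Its promoter is shown because the gene was the one that rose throughout, with capitals marking each match of the GC box (GGGCGG, searched on both strands), the core of the Sp1 site. The window is the 250 bases before the start of the gene in RefSeq (GRCh38.p14, chr6:36678464-36678713, plus strand), and its last pair of matches overlap.
CDKN1A: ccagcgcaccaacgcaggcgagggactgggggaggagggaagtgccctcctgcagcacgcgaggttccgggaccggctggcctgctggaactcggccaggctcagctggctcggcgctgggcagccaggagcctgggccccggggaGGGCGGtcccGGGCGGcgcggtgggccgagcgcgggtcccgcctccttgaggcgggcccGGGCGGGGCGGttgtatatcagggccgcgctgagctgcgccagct
The window holds 4 matches, and 42.6% of 35116 promoters of that length hold at least 1.

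At 24 h, CDKN1A stood at 165, 159 and 156 CPM in the UT libraries. CKI gave 370.0, 253 and 256 CPM, OO gave 319.5, 305 and 263 CPM, and MOO gave 312, 286 and 287 CPM. These 3 groups overlapped one another, and all their libraries lay above UT. The mixtures without oxymatrine and oxysophocarpine were higher again, with 593, 499 and 667 CPM in N-OmtOspc and 539, 374 and 519 CPM in N-MacOmtOspc. Against UT, the log2 fold change was 0.87 ± 0.15 (SE) after CKI (adjusted p = 0.00382), 1.91 ± 0.13 after N-OmtOspc (adjusted p = 5.88e-06) and 1.60 ± 0.15 after N-MacOmtOspc (adjusted p = 0.000383). CKI replicate 1 was the highest of its group, and without it the change after CKI was 0.66 and still called.

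At 48 h the groups drew further apart. In batch 1, CDKN1A stood at 149, 155 and 159 CPM in UT and at 308, 303 and 280.1 CPM after CKI. N-OmtOspc gave 1110.2, 1046 and 1021 CPM and N-MacOmtOspc gave 1051, 1174 and 1039 CPM. These 2 groups overlapped each other and were more than 3 times the level of every CKI, OO or MOO library. OO stood at 315 ± 2.95 CPM (SD, n = 3) and MOO at 268 ± 13.1 CPM, close to CKI. In batch 2, UT libraries gave 235, 205 and 264 CPM, CKI gave 512, 504 and 513 CPM, and N-Omt gave 1214, 1151 and 1143 CPM. N-Mac (677 ± 14.3 CPM), N-Tri (625 ± 25.7 CPM) and N-Nme (559.8 ± 38.1 CPM) lay between CKI and N-Omt. The libraries of these 5 groups did not overlap in that order, though the highest N-Nme library (604 CPM) came close to the lowest N-Tri library (607 CPM), and the mixtures were not tested against each other.

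Relative to CKI itself, CDKN1A was higher in 8 of 12 comparisons and lower in 1. The differences were largest where oxymatrine had been left out: 1.86 ± 0.05 for N-OmtOspc at 48 h (adjusted p = 1.37e-17), 1.89 ± 0.10 for N-MacOmtOspc at 48 h (adjusted p = 5.39e-07) and 1.22 ± 0.03 for N-Omt (adjusted p = 1.59e-36). Without macrozamin alone the difference was 0.42 ± 0.04 and without trifolirhizin alone 0.28 ± 0.03. OO did not differ from CKI beyond the spread at 24 h (0.00 ± 0.18, adjusted p = 0.993) or at 48 h (0.09 ± 0.04, adjusted p = 0.0678, and 0.0131 without CKI replicate 1). The small calls rested on single libraries. MOO at 48 h (-0.15 ± 0.05, adjusted p = 0.0201) lost its call without MOO replicate 3 (-0.12, adjusted p = 0.144), MOO replicate 1 (adjusted p = 0.0506) or CKI replicate 2 (adjusted p = 0.0750), and with the 18 libraries of the set in 1 fit (adjusted p = 0.0554). N-Nme (0.13 ± 0.06, adjusted p = 0.0492) lost its call without any CKI library (adjusted p from 0.115 to 0.140) or N-Nme replicate 1 (adjusted p = 0.129), and with RLE, library sizes alone, DESeq2 or 1 fit (adjusted p from 0.0673 to 0.103). At 24 h, the call for N-MacOmtOspc against CKI (0.72 ± 0.21, adjusted p = 0.0433) was lost without CKI replicate 2 or 3 (adjusted p = 0.158 and 0.136) or N-MacOmtOspc replicate 1 or 3 (adjusted p = 0.129 and 0.151) and with library sizes alone (adjusted p = 0.0638), and the change was 1.09, and called, with the libraries that stand apart left out.

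CDKN1B, the inhibitor p27, did not follow CDKN1A. Its level lay between 36.4 and 54.5 CPM in all 54 libraries, and its log2 fold change against UT between -0.32 and 0.20. It was higher in 0 and lower in 7 of the 15 comparisons, all of them at 48 h. In batch 2 it stood at 45.5, 48.4 and 47.2 CPM in UT, at 37.3, 36.4 and 39.5 CPM in N-Mac and at 39.7, 39.4 and 38.9 CPM in N-Omt, with no overlap between UT and either mixture. Of all tested genes, 75.3% (N-Mac) and 80.8% (N-Omt) likewise did not overlap UT. The falls of CDKN1B in these 2 mixtures (-0.31 ± 0.06, adjusted p = 0.000254, and -0.24 ± 0.05, adjusted p = 0.00071) were also the calls that stood without each library in turn, and both mixtures were lower than CKI too (-0.25 ± 0.05 and -0.19 ± 0.05). The other 5 calls were lost without 1 library: those of CKI, N-MacOmtOspc, OO and MOO at 48 h in batch 1 without UT replicate 2 (adjusted p from 0.0623 to 0.0924), and that of N-Nme without UT replicate 2 (adjusted p = 0.0653) or N-Nme replicate 1 or 2 (adjusted p = 0.0636 and 0.0733). CKI replicate 2 or 3 (adjusted p = 0.0664 and 0.0547), OO replicate 3 (adjusted p = 0.0615) and MOO replicate 3 (adjusted p = 0.0769) also decided their own calls. Against CKI, CDKN1B was lower in 2 of 12 comparisons and higher in 0. N-OmtOspc at 48 h (0.15) passed as higher without its replicate 2 (0.22, adjusted p = 0.00494) or CKI replicate 1 (0.17, adjusted p = 0.0402). N-Nme (-0.14) passed as lower without its replicate 3 (-0.20, adjusted p = 0.00408).

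**Figure D2:**
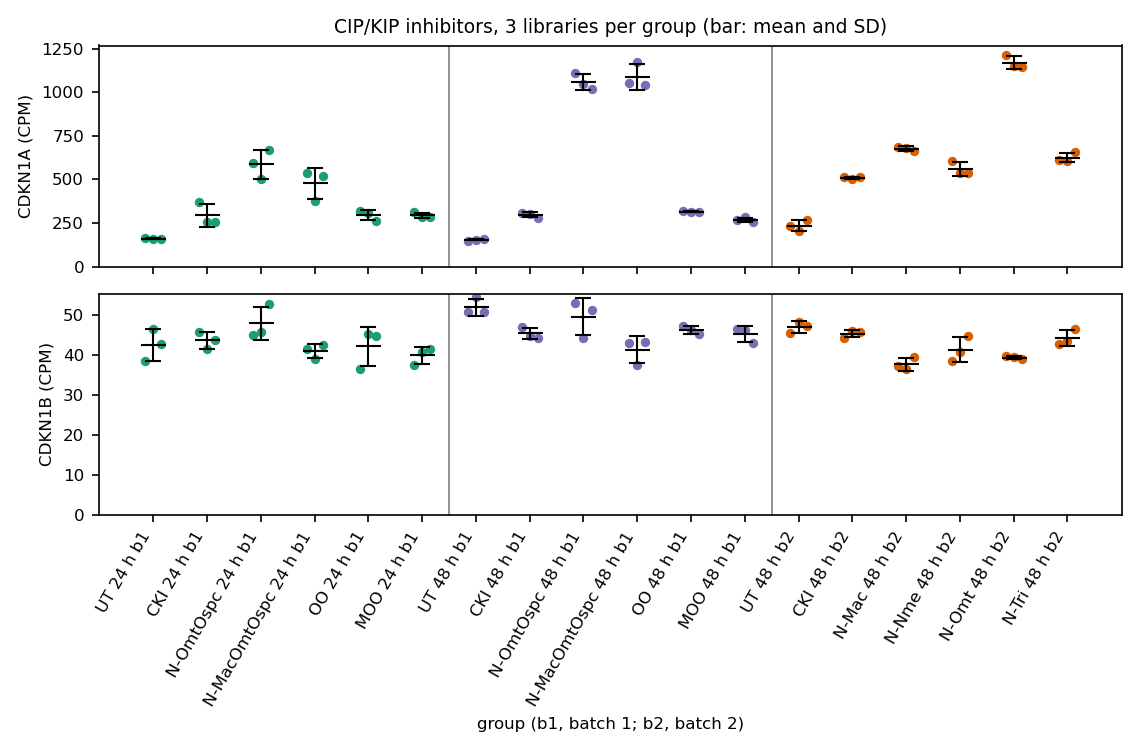
CDKN1A (top) and CDKN1B (bottom) in each library, in counts-per-million on an axis from 0, for the 18 groups in their 3 sets (24 h batch 1, 48 h batch 1, 48 h batch 2); dots are libraries and bars the mean with the SD of 3. CDKN1A is at 1059, 1088 and 1169 CPM on average in N-OmtOspc and N-MacOmtOspc at 48 h and in N-Omt, while CDKN1B stays between 36.4 and 54.5 CPM throughout.

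Among the D cyclins, CCND1 and CCND3 separated. CCND1 fell in 14 of 15 comparisons, whichever compounds were present, and CCND3 rose after CKI at both times and in both batches but fell after 9 of the 12 mixtures. CCND1 at 48 h in batch 1 stood at 823, 749 and 778 CPM in UT and at 487, 491 and 499 CPM after CKI. OO gave 357, 348 and 349 CPM and N-OmtOspc 234, 224 and 217 CPM. No treated library reached the UT range. The log2 fold change was -0.66 ± 0.05 after CKI (adjusted p = 6.46e-09), -1.16 ± 0.05 after OO (adjusted p = 9.41e-14) and -1.77 ± 0.06 after N-OmtOspc (adjusted p = 2.22e-17). In batch 2, CCND1 stood at 716, 742 and 638 CPM in UT, at 392, 399 and 414 CPM after CKI and at 183, 182 and 188 CPM after N-Mac, the lowest of its groups (-1.91 ± 0.06 against UT, adjusted p = 7.89e-13). N-Omt, N-Nme and N-Tri followed at 211 ± 3.34, 233 ± 9.58 and 233 ± 2.25 CPM, and the libraries of the last 2 overlapped.

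At 24 h the falls of CCND1 were smaller in value than at 48 h in batch 1. Only the CKI effect was tested between the times, and for CCND1 that difference was not called. UT gave 761, 759.7 and 812 CPM, CKI gave 521, 534 and 495 CPM (-0.59 ± 0.08, adjusted p = 0.00114), and N-MacOmtOspc gave 295, 485 and 340.3 CPM (-1.04 ± 0.18, adjusted p = 0.00314). OO gave 567, 753 and 681 CPM, all below UT, and missed the threshold (-0.22 ± 0.13, adjusted p = 0.253). The call of N-OmtOspc at 24 h (-0.53 ± 0.17, adjusted p = 0.0242), whose libraries spread from 383 to 648 CPM, was lost without its replicate 1 (adjusted p = 0.0650) or without any UT library (adjusted p from 0.0536 to 0.0726). Against CKI, CCND1 was lower in 7 of 12 comparisons, by -0.48 to -1.11 on the log2 scale. With all libraries these calls were at 48 h, but N-MacOmtOspc at 24 h (-0.45 ± 0.19, adjusted p = 0.118) passed without its replicate 2, the library that stood apart (-0.67, adjusted p = 0.00462). MOO at 24 h was on the other side of CKI (0.27 ± 0.08, adjusted p = 0.0613) and passed as higher without CKI replicate 1 (0.29, adjusted p = 0.0234). MOO at 48 h did not pass (-0.12 ± 0.05, adjusted p = 0.0558), but did without CKI replicate 1 (adjusted p = 0.0363) or MOO replicate 2 (adjusted p = 0.0266).

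CCND3 was the gene called lower than CKI in the most comparisons, 11 of 12. At 24 h it stood at 306, 304 and 277 CPM in UT, at 485, 516 and 536 CPM after CKI and at 657, 596 and 617 CPM after N-OmtOspc. Both treated groups lay wholly above UT (0.79 ± 0.08, adjusted p = 0.000414, and 1.11 ± 0.10, adjusted p = 2.37e-05). N-MacOmtOspc, which differs from N-OmtOspc by the loss of macrozamin, gave 242, 251 and 223 CPM, all below UT, and its call (-0.29 ± 0.09, adjusted p = 0.0327) was lost without N-MacOmtOspc replicate 1 or 3 (adjusted p = 0.0584 and 0.141) or UT replicate 1 or 2 (adjusted p = 0.108 and 0.126). OO (0.06 ± 0.13) and MOO (0.17 ± 0.07) overlapped UT, and MOO passed without its replicate 3 (0.24, adjusted p = 0.012).

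CCND3 at 48 h in batch 1 stood at 282, 313 and 314 CPM in UT and at 459.8, 434 and 426 CPM after CKI (0.55 ± 0.06, adjusted p = 2.23e-07). N-OmtOspc, the highest group at 24 h, was at 296, 241 and 249 CPM and overlapped UT (-0.19 ± 0.07, adjusted p = 0.0204). That call was lost without N-OmtOspc replicate 2 or 3 (adjusted p = 0.152 and 0.0993) or UT replicate 2 (adjusted p = 0.0697), with library sizes alone (adjusted p = 0.0964) and in 1 fit of the set (adjusted p = 0.0974). N-MacOmtOspc (157 ± 31.1 CPM), OO (174 ± 7.29 CPM) and MOO (197 ± 13.9 CPM) lay below every UT library, and N-MacOmtOspc overlapped both OO and MOO, which did not overlap each other. In batch 2, UT gave 216, 234 and 198 CPM, CKI gave 427, 396 and 433 CPM (0.97 ± 0.06, adjusted p = 1.43e-08), and the libraries of N-Mac, N-Nme, N-Omt and N-Tri all lay between 90.1 and 117 CPM. In each of the 4 mixtures that lacked 1 compound, CCND3 was thus below UT, where CKI was above it. Against CKI, the deepest difference in CCND3 was -2.13 ± 0.06 for N-Nme (adjusted p = 1.64e-16), and the comparison not called was N-OmtOspc at 24 h (0.31 ± 0.13, adjusted p = 0.0647, and 0.0368 without its replicate 3). For OO at 24 h (-0.73 ± 0.14, adjusted p = 0.0428) the call was lost without any CKI library or without OO replicate 2 or 3 (adjusted p from 0.0674 to 0.218).

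The counts of members called against CKI stood against these backgrounds. At 24 h, 4 of the 10 genes were called for N-OmtOspc (54.0% of all genes), 4 for N-MacOmtOspc (23.1%), 1 for OO (2.32%) and 4 for MOO (16.0%). At 48 h in batch 1, 8 were called for N-OmtOspc (77.8%), 9 for N-MacOmtOspc (60.5%), 8 for OO (64.6%) and 8 for MOO (57.9%). In batch 2, 9 were called for N-Mac (72.8%), 8 for N-Nme (72.7%), 9 for N-Omt (80.5%) and 8 for N-Tri (77.1%). The count for N-MacOmtOspc at 24 h depended on single libraries: it was 7 without N-MacOmtOspc replicate 2, 2 without CKI replicate 1, and 1 without CKI replicate 2 or 3 or N-MacOmtOspc replicate 1 or 3. The count for MOO at 24 h was 2 without MOO replicate 2. For 25.2% (OO at 24 h) to 80.6% (N-Omt) of all tested genes, the libraries of a mixture did not overlap those of CKI. Comparisons with CKI in a set share the same CKI libraries.

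**Figure D3:**
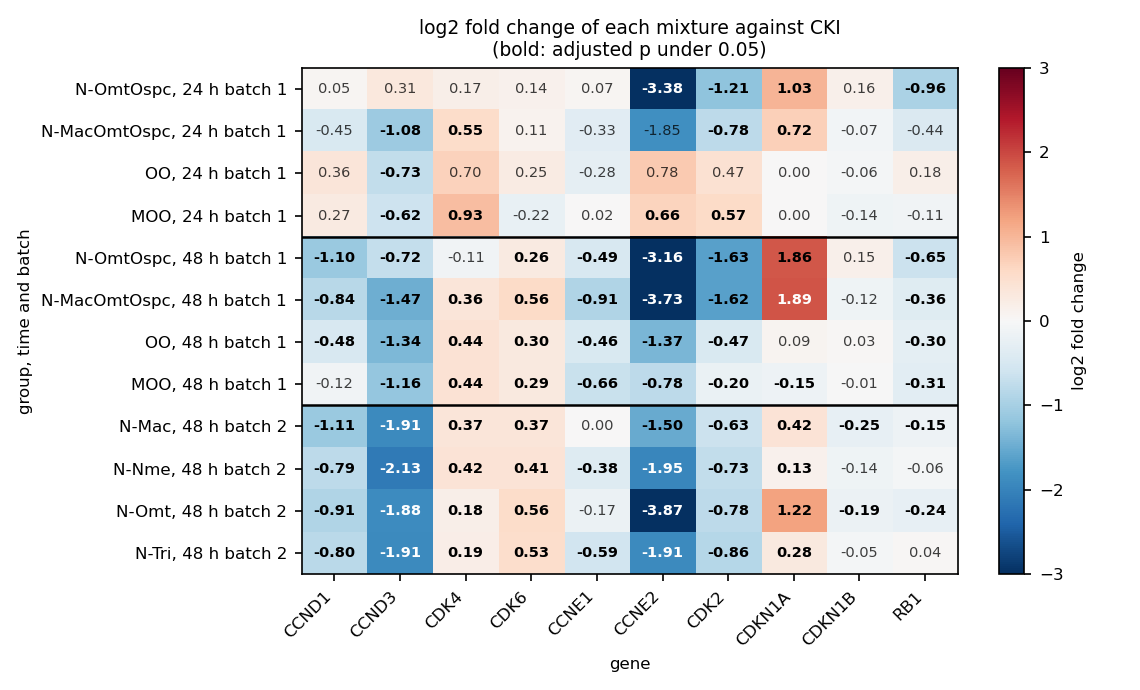
Log2 fold change of each of the 10 genes (columns) against CKI of the same time and batch in the 12 comparisons (rows), from edgeR. Bold numbers mark an adjusted p under 0.05. CCND3 is lower in 11 rows (to -2.13), CDK4 is higher in 9 and CDK6 in 8, all of the latter at 48 h.

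CDK4, a kinase partner of the D cyclins, was lowest after CKI and N-OmtOspc in batch 1 and after CKI in batch 2. At 24 h it stood at 190.2, 189.7 and 167 CPM in UT, at 89.3, 106 and 119 CPM after CKI (-0.80 ± 0.11, adjusted p = 0.00153) and at 117, 125 and 107 CPM after N-OmtOspc (-0.62 ± 0.10, adjusted p = 0.000698). CKI and N-OmtOspc overlapped each other and lay below all UT libraries. MOO (217, 194 and 189.7 CPM) overlapped UT (0.13 ± 0.07), as did OO (209, 147 and 158 CPM, -0.09 ± 0.14). At 48 h in batch 1, CKI gave 112, 102 and 97.6 CPM against 144, 155 and 158 CPM in UT (-0.55 ± 0.06, adjusted p = 4.02e-07), N-OmtOspc gave 94.4 ± 1.83 CPM, and OO and MOO both had means of 141 CPM and missed the threshold against UT. Without UT replicate 1 both passed (-0.16, adjusted p = 0.00148 for OO and 0.0106 for MOO), as did OO without its replicate 1 (adjusted p = 0.0468). In batch 2, CKI gave 102, 99.5 and 100.3 CPM, below all libraries of the 4 mixtures, which lay between 112 and 148 CPM.

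Against CKI, CDK4 was higher in 9 of 12 comparisons, by 0.18 to 0.93, and lower in 0. The exceptions were N-OmtOspc at both times (0.17 ± 0.14 and -0.11 ± 0.06, the latter passing without CKI replicate 3, adjusted p = 0.0417) and OO at 24 h (0.70 ± 0.17, adjusted p = 0.0829). OO at 24 h passed as higher by DESeq2 (adjusted p = 0.00981) and with the 18 libraries of the set in 1 fit (adjusted p = 0.0044). For N-MacOmtOspc the calls at 24 h (0.55 ± 0.15) and 48 h (0.36 ± 0.11) were lost without 1 library, the former without any library but its replicate 2 (adjusted p from 0.0643 to 0.123) and the latter without CKI replicate 2 or 3 (adjusted p = 0.0683 and 0.0747). Against UT, CDK4 was lower in 9 of 15 comparisons. The call of N-Nme (-0.18 ± 0.07, adjusted p = 0.0307) was lost without N-Nme replicate 2 or 3 (adjusted p = 0.115 and 0.120) or UT replicate 1 or 3 (adjusted p = 0.0911 and 0.0557), and N-MacOmtOspc passed without its replicate 2 at 24 h (-0.35, adjusted p = 0.00078, against -0.25 ± 0.11, adjusted p = 0.108, with it) and at 48 h (-0.28, adjusted p = 0.00796, against -0.20 ± 0.11, adjusted p = 0.114).

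The CDK4 promoter is shown because, among the windows found, it alone held the E-box CACGTG, the core bound by MYC and its partners, marked in capitals. It is the 250 bases before the start of the gene in RefSeq (GRCh38.p14, chr12:57752311-57752560, minus strand).
CDK4: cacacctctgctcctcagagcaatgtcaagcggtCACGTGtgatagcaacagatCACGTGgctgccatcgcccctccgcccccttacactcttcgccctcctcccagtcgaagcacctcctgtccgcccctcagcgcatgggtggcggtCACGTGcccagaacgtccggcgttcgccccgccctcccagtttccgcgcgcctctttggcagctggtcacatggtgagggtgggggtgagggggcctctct
The E-box occurs 3 times here (it reads the same on both strands), and in 6.3% of all promoters of that length. An E2F motif (TTTGGCGC, TTTCGCGC, TTTCCCGC or TTTGCCGC, either strand), held by 2.8% of all promoters, was in no window of the 7 members that have one. Only these exact letters in the 250 bases before the start were searched. Sites with other letters or outside the window were not looked for. Entries were found for CCND3, CCNE1, CDK4, CDK6, CDKN1A, CDKN1B and RB1.

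Exons of CDK4 share 51.9% of their bases with TSPAN31 on the opposite strand, and the strand setting of the counting is not given in the sources used here, so reads of the 2 genes may not be told apart. TSPAN31 had 10.1 to 53.5 CPM and was higher than UT in 10 and lower in 0 comparisons (-0.16 to 1.92). Its part in the CDK4 values was not tested. LTO1, also on the opposite strand, overlaps 11.3% of the exon bases of CCND1. Under its older symbol ORAOV1 in the table it had 13.1 to 42.7 CPM, and was higher than UT in 2 and lower in 3 comparisons (-0.61 to 0.49), and its part in the CCND1 values was not tested. A CDK4 pseudogene, CDK4P1, and 2 CCND3 pseudogenes, CCND3P1 and CCND3P2, can also share reads with their parents.

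CDK6, the other D cyclin kinase, moved little against UT (-0.43 to 0.16) and was lower in 5 and higher in 2 comparisons. CKI at 48 h gave the clearest falls, from 49.2, 43.4 and 43.4 to 33.2, 32.8 and 34.1 CPM in batch 1 (-0.43 ± 0.07, adjusted p = 2.15e-05) and from 68.9, 72.3 and 64.8 to 52.8, 53.3 and 50.4 CPM in batch 2 (-0.38 ± 0.05, adjusted p = 3.03e-05), with no overlap. All 8 mixtures at 48 h were higher than CKI, by 0.26 ± 0.07 (N-OmtOspc) to 0.56 ± 0.05 (N-Omt). At 24 h no mixture was called, but N-OmtOspc (0.14 ± 0.20, adjusted p = 0.585) passed as higher without CKI replicate 1 (0.40, adjusted p = 0.0270). N-Omt (76.0, 76.3 and 75.5 CPM) and N-Tri (74.8, 77.6 and 74.6 CPM) were slightly above UT.

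The other CDK6 calls against UT each rested on single libraries. MOO at 24 h lost its call without UT replicate 3 (adjusted p = 0.0546), N-Omt without UT replicate 3 (adjusted p = 0.0786), and N-OmtOspc at 48 h without its replicate 2 or 3 (adjusted p = 0.127 and 0.153) or UT replicate 1 (adjusted p = 0.129). N-Tri lost it without UT replicate 1 or 3 or its own replicate 1 or 2 (adjusted p from 0.0559 to 0.125), and OO at 48 h without UT replicate 1 or any OO library (adjusted p from 0.0554 to 0.175). At 24 h, CDK6 was higher in the 3 libraries that stood apart than in the rest of their groups. CKI gave 51.8, 33.4 and 31.9 CPM, and without replicate 1 CDK6 was lower than UT (-0.40, adjusted p = 0.00145). Without replicate 2 of N-MacOmtOspc (31.7, 59.1 and 33.7 CPM) it was lower as well (-0.38, adjusted p = 0.00102), where both comparisons missed the threshold with all libraries (-0.14 ± 0.19 and -0.03 ± 0.23). OO at 24 h passed as higher without its replicate 1 (0.34, adjusted p = 0.0325), and MOO at 48 h as lower without its replicate 1 (-0.24, adjusted p = 0.0233).

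**Figure D4:**
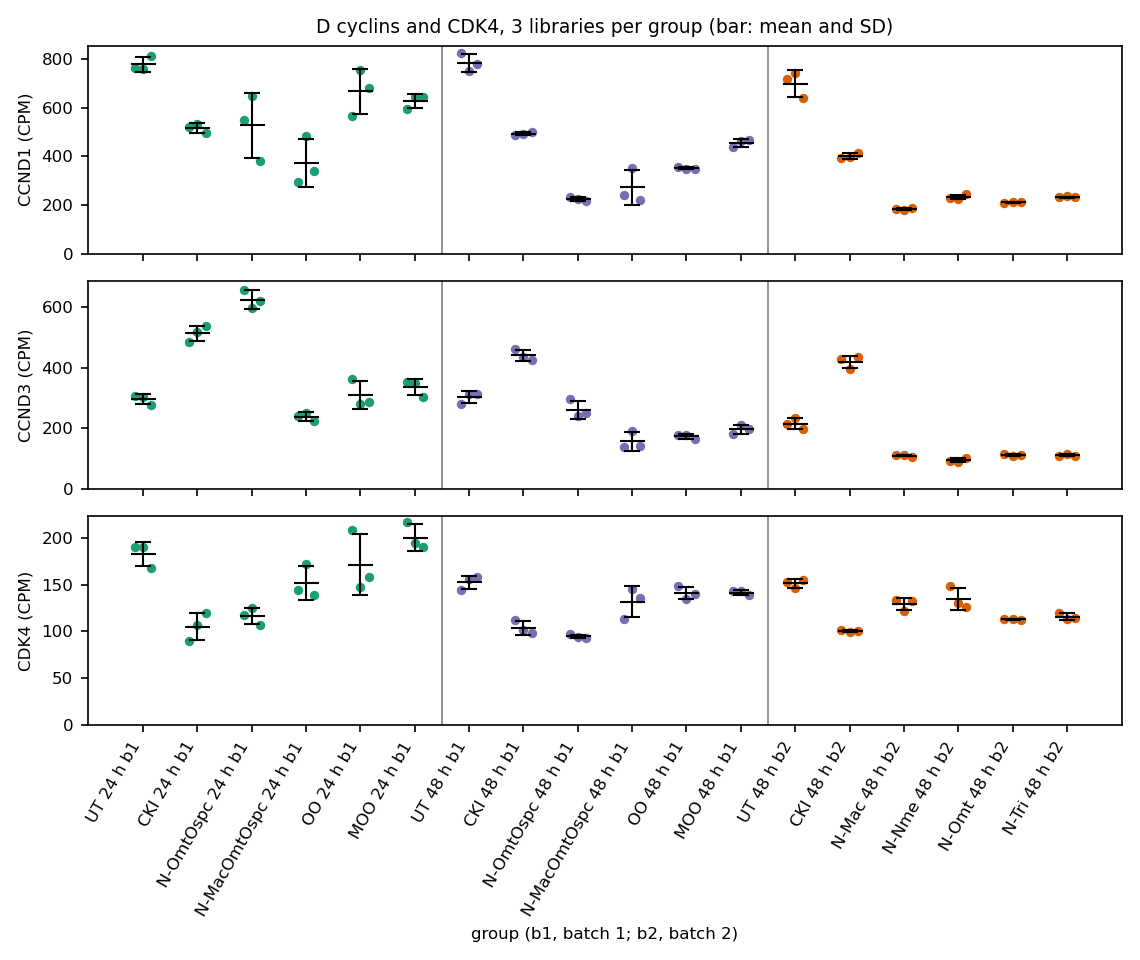
CCND1 (top), CCND3 (middle) and CDK4 (bottom) in each library, in counts-per-million on axes from 0, for the 18 groups in their 3 sets; dots are libraries and bars the mean with the SD of 3. CCND1 is below UT in every treated group, CCND3 is above UT after CKI in all 3 sets and below it in every batch 2 mixture, and CDK4 is at 100.4 ± 1.07 CPM after CKI in batch 2 against 151 ± 4.74 in UT.

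The E cyclins also separated from each other. CCNE2 fell in 14 of 15 comparisons, to a few counts-per-million in several mixtures, whereas CCNE1 was higher in 3, lower in 5 and within 0.58 of UT on the log2 scale in all. CCNE2 at 24 h stood at 23.3, 23.8 and 23.4 CPM in UT and at 10.2, 12.7 and 11.8 CPM after CKI (-1.03 ± 0.11, adjusted p = 0.000486). The libraries did not overlap, and the call was lost with the 18 libraries of the set in 1 fit (-1.02, adjusted p = 0.0773). N-OmtOspc gave 1.90, 0.536 and 0.801 CPM, from 31, 8 and 15 counts (-4.40 ± 0.31, adjusted p = 6.9e-06), and the value was -5.05 without its replicate 1. N-MacOmtOspc gave 1.04, 6.83 and 1.64 CPM (-2.88 ± 0.58, adjusted p = 0.00637), and -4.09 without replicate 2, the library that stood apart. OO (14.8, 27.4 and 17.9 CPM) overlapped UT and missed the threshold (-0.23 ± 0.21, adjusted p = 0.477), but passed without its replicate 2 (-0.53, adjusted p = 0.0269).

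CCNE2 at 48 h in batch 1 stood at 21.7, 17.2 and 19.1 CPM in UT, 11.2, 12.7 and 12.2 CPM after CKI, 7.55, 5.93 and 7.76 CPM after MOO, and 4.20, 4.21 and 5.55 CPM after OO. The mixtures without oxymatrine and oxysophocarpine were the lowest, with 0.742, 1.65 and 1.57 CPM in N-OmtOspc and 0.941, 0.854 and 0.871 CPM in N-MacOmtOspc. The order UT, CKI, MOO, OO and then these 2 held without overlap, and N-OmtOspc and N-MacOmtOspc did overlap. In batch 2, UT gave 24.1, 24.0 and 19.9 CPM, CKI gave 13.0, 13.2 and 12.9 CPM, and N-Omt gave 1.06, 0.874 and 0.654 CPM from 25, 21 and 13 counts. That is 25.6-fold below UT (-4.68 ± 0.15, adjusted p = 8.63e-13) and the largest change of any of the 10 genes. N-Mac (4.54 ± 0.568 CPM), N-Tri (3.46 ± 0.546 CPM) and N-Nme (3.38 ± 0.415 CPM) lay between CKI and N-Omt.

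Against CKI, CCNE2 was lower in 9 of 12 comparisons, to -3.87 ± 0.15 for N-Omt (adjusted p = 7.05e-30), and higher in 1. The higher one was MOO at 24 h (0.66 ± 0.12, adjusted p = 0.0119), whose 17.4, 18.4 and 19.5 CPM all lay above CKI. Its call was lost without MOO replicate 2 (adjusted p = 0.0686) or 3 (adjusted p = 0.0509), and with the 18 libraries of the set in 1 fit (adjusted p = 0.327). OO at 24 h also lay wholly above CKI, with a larger difference that missed the threshold (0.78 ± 0.24, adjusted p = 0.136) and passed by DESeq2 (adjusted p = 0.0437). N-MacOmtOspc at 24 h missed the threshold against CKI (-1.85 ± 0.61, adjusted p = 0.0632) and passed without its replicate 2 (-3.06, adjusted p = 0.000565). For N-OmtOspc at 24 h the difference from CKI was -3.38 ± 0.38, and -4.05 without its replicate 1. Exons of CCNE2 share 47.5% of their bases with INTS8 on the opposite strand, which had 21.0 to 69.8 CPM and was higher than UT in 12 and lower in 0 comparisons (-0.02 to 1.46). Its part in the CCNE2 values was not tested.

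CCNE1 at 48 h was higher than UT after CKI, with 16.3, 18.3 and 14.1 against 12.2, 13.3 and 12.1 CPM in batch 1 (0.38 ± 0.10, adjusted p = 0.00234) and 13.9, 15.6 and 14.5 against 12.7, 11.1 and 11.7 CPM in batch 2 (0.32 ± 0.08, adjusted p = 0.0043), with no overlap. N-Mac (15.2, 14.3 and 14.2 CPM) was at the level of CKI (0.31 ± 0.09 against UT). It was lower after N-MacOmtOspc at 24 h (-0.58 ± 0.11) and 48 h (-0.54 ± 0.12), and after OO at 24 h (-0.52 ± 0.12), MOO at 48 h (-0.28 ± 0.09) and N-Tri (-0.27 ± 0.09). The last 3 calls were lost without single libraries: OO at 24 h without any UT library or OO replicate 3 (adjusted p from 0.0815 to 0.130), MOO at 48 h without MOO replicate 3 or UT replicate 2 (adjusted p = 0.0699 and 0.0685), and N-Tri without its replicate 1 or UT replicate 1 (adjusted p = 0.0574 and 0.0670). Against CKI, CCNE1 was lower in 6 of 12 comparisons and higher in 0. N-MacOmtOspc at 24 h (-0.33 ± 0.16, adjusted p = 0.160) passed as lower with CKI replicate 1 and N-MacOmtOspc replicate 2 both left out (-0.42, adjusted p = 0.00358). N-Omt against CKI (-0.17) missed the threshold. It passed as lower without CKI replicate 1 (-0.22, adjusted p = 0.0294) or N-Omt replicate 1 (-0.25, adjusted p = 0.0142). CCNE1 is a paralogue of CCNE2 on another chromosome, and its promoter window (RefSeq, GRCh38.p14, chr19:29811741-29811990, plus strand) is shown as the one with the most GC boxes of the 7 members, each in capitals.
CCNE1: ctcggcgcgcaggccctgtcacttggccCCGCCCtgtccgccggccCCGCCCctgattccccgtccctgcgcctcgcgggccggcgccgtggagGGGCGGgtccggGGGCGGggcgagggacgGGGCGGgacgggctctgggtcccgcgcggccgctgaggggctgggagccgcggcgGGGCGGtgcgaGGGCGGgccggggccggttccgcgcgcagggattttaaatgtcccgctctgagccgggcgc
It holds 7 matches over both strands. The other windows held from 0 (RB1) to 5 (a CCND3 start), and CDK4 and a CDK6 start held 3 each.

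CDK2, the partner of the E cyclins, followed CCNE2 with smaller falls. At 48 h in batch 1 it stood at 74.0, 72.5 and 69.9 CPM in UT, 59.4, 55.8 and 58.6 CPM after CKI, 43.4, 40.6 and 41.8 CPM after OO, and 17.8, 19.1 and 18.2 CPM after N-OmtOspc. N-MacOmtOspc (21.2, 16.9 and 17.6 CPM) overlapped N-OmtOspc, and MOO (50.7 ± 1.81 CPM) lay between CKI and OO. The log2 fold change against UT was -0.31 ± 0.06 after CKI (adjusted p = 0.000166), -0.78 ± 0.05 after OO (adjusted p = 2.33e-10) and -1.95 ± 0.07 after N-OmtOspc (adjusted p = 7.82e-17). In batch 2, UT gave 78.4, 84.0 and 73.8 CPM, CKI gave 52.5, 51.0 and 53.2 CPM, and the 4 mixtures all lay between 26.3 and 35.5 CPM and overlapped one another.

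CDK2 was lower than UT in 13 of 15 comparisons, each of which stood without any single library, and OO and MOO at 24 h did not pass (-0.16 ± 0.11 and -0.06 ± 0.07). Against CKI it was lower in 10 of 12 and higher after MOO at 24 h (73.6, 73.6 and 77.3 against 50.2, 53.7 and 47.0 CPM, 0.57 ± 0.09, adjusted p = 0.00759). That call was lost without MOO replicate 2 (adjusted p = 0.0534). The call of N-MacOmtOspc against CKI at 24 h (-0.78 ± 0.23, adjusted p = 0.0478) was lost without any library but N-MacOmtOspc replicate 2 (adjusted p from 0.0894 to 0.170), and without that one it was -1.09 (adjusted p = 0.00132). An antisense gene of the annotation, AC025162.1, overlaps 11.8% of the exon bases of CDK2.

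**Figure D5:**
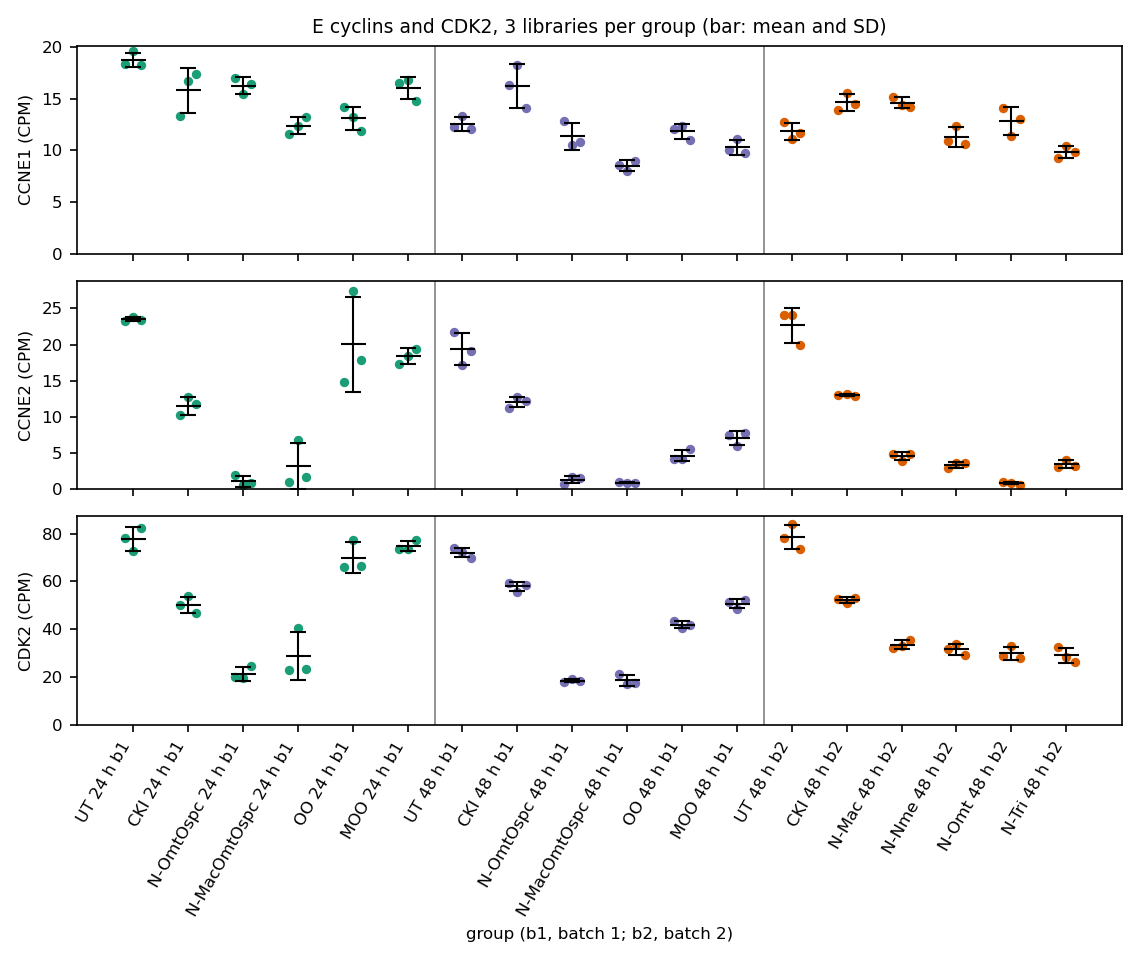
CCNE1 (top), CCNE2 (middle) and CDK2 (bottom) in each library, in counts-per-million on axes from 0, for the 18 groups in their 3 sets; dots are libraries and bars the mean with the SD of 3. CCNE2 falls to about 1 CPM in N-OmtOspc, N-MacOmtOspc (48 h) and N-Omt, CDK2 is lowest in the first 2 of these at 48 h (18.4 and 18.6 CPM), and CCNE1 stays between 8.01 and 19.6 CPM.

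RB1, the substrate of these kinases and the brake on E2F, was lower than UT in 11 of 15 comparisons and higher in 0. The deepest falls came without oxymatrine and oxysophocarpine in batch 1. At 24 h it stood at 48.2, 52.9 and 57.5 CPM in UT, at 24.5, 24.9 and 19.3 CPM after N-OmtOspc (-1.18 ± 0.13, adjusted p = 7.47e-05) and at 25.3, 44.5 and 29.1 CPM after N-MacOmtOspc (-0.67 ± 0.21, adjusted p = 0.0325). At 48 h, N-OmtOspc gave 29.7, 30.7 and 27.1 CPM against 59.8, 49.6 and 48.9 CPM in UT (-0.83 ± 0.08, adjusted p = 2.94e-09), and N-MacOmtOspc, OO and MOO gave means of 35.9 to 37.6 CPM, with all of these libraries below UT. In batch 2 the falls were smaller, to -0.39 ± 0.06 after N-Omt (48.6, 51.1 and 52.0 against 63.8, 72.6 and 64.0 CPM, adjusted p = 3.19e-05). Against CKI, RB1 was lower in 7 of 12 comparisons (to -0.96 ± 0.15 for N-OmtOspc at 24 h) and higher in 0. N-MacOmtOspc at 24 h (-0.44 ± 0.22, adjusted p = 0.184) passed as lower without its replicate 2, the library that stood apart (-0.70, adjusted p = 0.00872).

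Of the RB1 calls against UT, 4 were lost without 1 library. That of N-MacOmtOspc at 24 h was lost without any library but its replicate 2 (adjusted p from 0.0627 to 0.11), and without that one it was -0.94 and called. That of MOO at 24 h (-0.34 ± 0.09) was lost without MOO replicate 2 or UT replicate 2 or 3 (adjusted p from 0.0606 to 0.0846), that of CKI at 48 h in batch 1 (-0.17 ± 0.07) without UT replicate 1 or any CKI library (adjusted p from 0.0573 to 0.307), and that of N-Nme (-0.20 ± 0.08) without N-Nme replicate 1 or UT replicate 2 (adjusted p = 0.157). CKI at 24 h (-0.23 ± 0.11, adjusted p = 0.131) passed without its replicate 1 (-0.31, adjusted p = 0.0108), and so did CKI in batch 2 (-0.12 ± 0.06, adjusted p = 0.0699) without UT replicate 3 (-0.16, adjusted p = 0.00798) and N-Tri (-0.09 ± 0.06) without that same library (-0.13, adjusted p = 0.0332).

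The baseline of untreated cells moved with time and batch. From 24 h to 48 h in batch 1, 4 of the 10 genes were called (25.2% of all genes): CCNE1 fell by 0.59 (SE 0.09, adjusted p = 0.000518), CCNE2 by 0.29 (adjusted p = 0.0278) and CDK4 by 0.27 (adjusted p = 0.010), and CDKN1B rose by 0.27 (adjusted p = 0.0177). The count was 2 without UT 24 h replicate 1 or 2 or UT 48 h replicate 2, and CCNE1 was called each time. Between batches at 48 h, 6 were called (58.8% of all genes), with CDK6 and CDKN1A each higher by 0.56 in batch 2 (adjusted p = 1.52e-05 and 3.63e-05), RB1 higher by 0.30, CCND3 lower (-0.53 ± 0.07, adjusted p = 3.1e-05), and CCND1 (-0.21) and CDKN1B (-0.19) lower. CCND1 lost its call without batch 2 replicate 3 (adjusted p = 0.0726), and CDKN1B without batch 1 replicate 2 or batch 2 replicate 1 (adjusted p = 0.102 and 0.104). Each treatment was therefore set against the UT of its own time and batch.

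The CKI effect was tested between times and between batches. Between 24 h and 48 h in batch 1, 0 of the 10 genes were called by edgeR's quasi-likelihood test (1.56% of all genes), with 4 at an unadjusted p under 0.05 and 2 called by DESeq2. The largest difference was that of CCNE1 (0.64 ± 0.16, adjusted p = 0.0695). CCNE1 after CKI was at 15.8 ± 2.15 CPM at 24 h and 16.2 ± 2.09 CPM at 48 h, while UT went from 18.7 ± 0.716 to 12.5 ± 0.69 CPM. Without CKI 24 h replicate 1, CCNE1, CDK2 and CDKN1A passed (adjusted p = 0.0214, 0.0484 and 0.0305), and without CKI 24 h replicate 3, CCNE1 passed (adjusted p = 0.0466). Between batches at 48 h, 2 genes were called (13.8% of all genes). The CKI effect on CCND3 was larger in batch 2 by 0.43 ± 0.09 (adjusted p = 0.00178), with CKI at 440.0 ± 17.5 CPM in batch 1 and 419 ± 19.9 CPM in batch 2, and UT at 303 ± 18.6 and 216 ± 18.3 CPM. That on CDK2 differed by -0.26 ± 0.08 (adjusted p = 0.0288), a call lost without any 1 of 9 of the 12 libraries (adjusted p from 0.0527 to 0.0792). That on CDKN1A (0.19 ± 0.09, adjusted p = 0.173) passed without UT batch 2 replicate 3 (0.28, adjusted p = 0.0188).

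Other genes of the pathway were counted in lists against UT, each with the 2 genes called in 1 direction most often and with members that moved the other way, the latter chosen after their values were seen. Of all genes tested, 8.54% to 40.1% were higher and 7.92% to 40.4% lower in a comparison, and many of the lists' counts lie near that. Of the other D cyclin and CDK inhibitors, 4 of 6 passed the filter. After CKI, 0 to 1 of them were higher and 2 to 3 lower (median -0.59 to -0.79), and after N-OmtOspc 3 were higher and 1 lower at both times (median 1.78 and 1.31). CDKN2C, an INK4 inhibitor of CDK4 and CDK6, was lower than UT in all 15 comparisons (-3.34 to -0.61). CCND2, the third D cyclin, was higher in 12 and lower in 1 (-0.80 to 3.08), at 1.06 to 24.2 CPM. CDKN2D, another INK4 gene, was lower in 7 and higher in 3 (-0.86 to 1.13), and CDKN1C, the third CIP/KIP inhibitor, was lower in 10 and higher in 4 (-2.33 to 2.99). CDKN2A and CDKN2B, also INK4 genes, had at most 5 and 4 counts in any library and were not tested.

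Of 12 pocket proteins, E2F and DP factors, 1 to 8 were lower and 1 to 4 higher in each comparison (median -0.93 to -0.05). E2F2, an activating E2F, was lower in all 15 (-5.30 to -0.78), and E2F7, a repressing E2F, was higher in all 15 (0.21 to 1.38). The direction did not go by that division, since E2F8, also repressing, was lower in 14 (-5.54 to -0.53), E2F6, also repressing, was higher in 12 (0.15 to 0.86), and the activating E2F1 and E2F3 were lower in 10 and 2 and higher in 2 and 7. Of 5 tested CDK activators and the S phase cyclin, 1 to 3 were lower and 0 to 3 higher in each comparison (median -0.35 to 0.40). CCNA2, the S phase cyclin, was lower in all 15 (-4.50 to -0.57) and the phosphatase gene CDC25A in 11 (-3.02 to 0.14). CDK7 and CCNH, parts of the CDK-activating kinase, were higher in 11 and 8 and lower in 1 each (-0.17 to 1.13 and -0.28 to 0.92). MNAT1, also a part of that kinase, was higher in 4 and lower in 1 (-0.35 to 0.40). Of the 8 ubiquitin ligase parts, 1 to 6 were lower and 0 to 3 higher (median -0.75 to 0.01). SKP2, which targets p27 for degradation, was lower in 14 (-2.59 to -0.22) and FBXO4 in 13 (-2.01 to -0.17). FBXW7, which targets cyclin E for degradation, was higher in 11 and lower in 0 (0.03 to 1.05), and SKP1 and AMBRA1 were higher in 7 and 5 and lower in 2 and 0. CDK3 had 0 counts in all libraries.

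Of the 8 S phase and proliferation markers, 8 were lower than UT after N-OmtOspc and N-MacOmtOspc at both times, after OO at 48 h and in all treated groups of batch 2, and 3 after OO at 24 h. After CKI and MOO in batch 1, 6 or 7 were lower, and CDC6 was the single gene called higher, in 1 comparison (MOO at 24 h). The median log2 fold change of that list ran from -0.26 (OO at 24 h) to -3.31 (N-Omt), against -0.02 to 0.03 for all genes tested. CCNB1, the mitotic cyclin, was lower in all 15 (-3.95 to -0.77), and so was MCM5 of the replicative helicase (-3.03 to -0.29).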

How the data were processed

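RNA of MDA-MB-231 cells (poly(A)-selected, strand-specific, paired-end) was sequenced, and the deposited values are raw read counts per gene that the authors made, with 1 column for each of 54 libraries. The submitters' processing notes name FastQC 0.11.4, Trim Galore 0.3.7, STAR 2.5.3a, Subread 1.5.2 (featureCounts), edgeR 3.22.3 and hg19; the strand setting and annotation release are not given in the sources used here. Groups came from the labels. These number N-OmtOspc and N-MacOmtOspc and abbreviate OO and MOO. The compounds given for these mixtures are a reading that the labels do not spell out. Counts were scaled by TMM and tested in R 4.3.3 with edgeR 4.0.16 (filterByExpr, quasi-likelihood test, 2 groups per fit, interaction terms for CKI by time or batch), two-sided, with Benjamini-Hochberg adjustment over all genes tested and a threshold of 0.05. Scripts were tested on simulated data. CPM are counts-per-million of the library total scaled by TMM, and exon lengths were taken from GENCODE.

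Named were all 10 members, the 2 genes of each pathway list called most often in 1 direction (ties by the larger median change), and the 3 genes most like each member. Other pathway genes named were chosen after their values were seen. A further pathway list is not reported here. Members, lists and rules were chosen with earlier results of these data known. Alternatives were library sizes alone, RLE, no filter, DESeq2 1.42.0, the replicate number as a block, 1 fit over the 18 libraries of a set, and leaving out each library or those that stand apart.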

Additional observations from a re-analysis of the deposited data

Results flagged for a closer look

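The effect of CKI on 2 of the 10 genes differed between batches at 48 h by a test of the interaction itself. For CCND3 the log2 fold change against untreated cells was 0.55 in batch 1 and 0.97 in batch 2, a difference of 0.432 (adjusted p = 0.00178), and all CKI libraries lay above all untreated libraries in both batches. For CDK2 it was -0.31 and -0.58, a difference of -0.262 (adjusted p = 0.0288), a call lost with the replicate number as a block (adjusted p = 0.0783) and without any 1 of 9 of the 12 libraries. In the untreated cells, batch 2 differed from batch 1 in CCND3 by -0.53 (adjusted p = 3.1e-05) and in CDK2 by 0.09 (adjusted p = 0.257).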

How the results depend on the processing

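Of 111 calls of the 10 genes against untreated cells, 87 stood under every alternative and 90 without each library, and of 80 calls against CKI, 69 and 71. No called value changed sign. With library sizes alone, CDK6 after N-OmtOspc at 24 h went from 0.01 to -0.29 (adjusted p = 0.0489) and CCNE1 from -0.17 to -0.47 (adjusted p = 0.00555), where this scaling moved the median of all genes by -0.30 and the share of calls that were higher from 49.4% to 34.4%. The same scaling moved that share from 49.1% to 28.4% for N-OmtOspc against CKI at 24 h (median by -0.34), from 49.5% to 37.8% for N-MacOmtOspc against CKI at 48 h (by -0.15), from 53.4% to 67.3% for the CKI effect by time, and from 50.3% to 60.3% for OO at 48 h. Counts of members called moved as follows. With library sizes alone they were 5 (from 8) for N-Nme against untreated cells, 2 (from 4) for N-MacOmtOspc against CKI at 24 h and 1 (from 0) for the CKI effect by time. With DESeq2 they were 4 (from 1) for OO against CKI at 24 h and 2 (from 0) for the CKI effect by time. With the 18 libraries of the set in 1 fit they were 1 (from 5) for MOO against untreated cells at 24 h and 2 (from 1) for OO against CKI at 24 h. With the libraries that stand apart left out they were 8 (from 4) for N-MacOmtOspc and 0 (from 1) for OO, both against CKI at 24 h. Without 1 library each, they ranged from 1 to 3 for OO and 3 to 6 for MOO against untreated cells at 24 h, from 1 to 7 for N-MacOmtOspc, 0 to 1 for OO and 2 to 5 for MOO against CKI at 24 h, from 0 to 3 for the CKI effect by time and 1 to 3 by batch, and from 2 to 4 for untreated cells by time. Replicate numbers did not pair the libraries, since in no comparison were all 3 correlations of same-numbered deviations over 0.1; with the replicate block the counts were 8 (from 5) for MOO against untreated cells, and, against CKI at 24 h, 2 (from 4) for N-MacOmtOspc, 0 (from 1) for OO and 0 (from 4) for MOO, and 1 (from 2) for the CKI effect by batch. Over all genes, calls moved by more than 1.5 times in 24 h comparisons. For OO against CKI they went from 330 to 1123 (DESeq2), 1290 (1 fit) and 0 (replicate block), for N-MacOmtOspc against CKI from 3339 to 5422 (1 fit), 1023 (block) and 9167 (libraries that stand apart left out), for MOO against CKI from 2279 to 204 (block) and 4130 (those libraries left out), for MOO against untreated cells from 5097 to 1588 (1 fit), for CKI against untreated cells from 5512 to 3631 (block), for untreated cells by time from 3571 to 1966 (block), and for the CKI effect by time from 232 to 847 (DESeq2) and 1 (block). The cause of these changes was not tested. CCNE2 had as few as 8 counts in a library, so its deepest folds are the least precise of the 10 genes.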

Other observations

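The genes whose levels were most like those of each member were sought over the 18 groups, each set of 6 centred on its own mean, as Pearson's r of mean log2 CPM. These values are descriptions, since the groups share untreated libraries, scaling and sets. CCNE2 was most like FAM111A (r = 0.988), CHAF1B (a subunit of the histone chaperone CAF-1, r = 0.981) and MCM6 (a subunit of the replicative helicase, r = 0.979), and CDK2 most like NUP85 (r = 0.988), TFDP1 (an E2F partner, r = 0.981) and FBN1 (r = 0.98). CDKN1A was most like KCTD13 (r = 0.976), RELA (a subunit of NF-kappaB, r = 0.970) and FTH1 (ferritin heavy chain, r = 0.966). CCND1 was most like ACTN4 (r = 0.985), LMNB2 (r = 0.979) and HDAC7 (r = 0.967), and CCND3 most like ZNRF1 (r = 0.962), KIAA2013 (r = 0.961) and ZGPAT (r = 0.960). For CDK4 these were FBXW4 (r = 0.947), ANP32B (r = 0.909) and EXOSC8 (r = 0.906), for CDK6 RAPH1 (r = 0.920), YAP1 (r = 0.912) and NAA15 (r = 0.900), and for RB1 GALNT7 (r = 0.966), CSE1L (r = 0.962) and EML4 (r = 0.946). CCNE1 (UBL5, r = 0.832, COPS9, r = 0.808, and RFC2, r = 0.803) and CDKN1B (CASKIN2, r = 0.884, TNRC18, r = 0.853, and FCGBP, r = 0.836) had the least close neighbours. Among the members, CCNE2 and CDK2 were the most alike (r = 0.958 over 18 groups), and CDKN1A ran opposite to both (r = -0.908 with CDK2 and -0.901 with CCNE2).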
